A study of Mus musculus with 9 samples.

Results

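The 47 genes described here code for the working parts of Wnt signalling: 20 genes for ligands and their release (19 Wnt proteins and the carrier Wls), 12 for receptors and the receptor regulators grouped with them, 6 for secreted regulators and 9 for effectors inside the cell. They were chosen by name, by a rule that uses no measured value, although earlier results of these data were known, and each was given a window of its RefSeq span on mm10 (GRCm38.p6) plus 5 kb on each side. Every interval of the deposited lists that touched a window by at least 1 bp was assigned to the gene. The 47 genes are 47 of 21883 protein-coding genes on the main chromosomes, all of which were given the same kind of window. Together the 47 windows span 2.87 Mb.

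The lists came from chromatin immunoprecipitation with sequencing (ChIP-seq) of KDM6A, a histone demethylase that removes methyl groups from lysine 27 of histone H3, in Sv129 mouse embryonic stem cells grown on gelatin with serum and leukemia inhibitory factor. The control group held 2 KDM6A libraries from cells labelled wild type (WT). The MTX group held 2 KDM6A libraries and 1 IgG library from cells that received 0.12 µM MTX for 24 h and whose genotype field reads folate deficiency, although the protocols describe only the drug. IgG is an antibody without a target on chromatin and measures background. The labels name a single cell line and do not say whether a group's libraries were separate cultures, so p-values measure only the spread between these libraries, which may be technical. The other 4 of the 9 samples were input DNA and were not analysed here as libraries of their own. Interval lists cannot show whether the cells carried stem cell markers, so that label was not checked.

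Wnt proteins are secreted signals that carry a lipid, and Wls escorts them to the cell surface. There they bind Frizzled receptors (Fzd) and the co-receptor Lrp5 or its relative Lrp6. Without a Wnt signal, a complex built on Axin and Apc lets the kinase Gsk3b mark beta-catenin (Ctnnb1) for destruction. With a signal, beta-catenin enters the nucleus and works with the DNA-binding proteins Tcf7, Tcf7l1, Tcf7l2 and Lef1. The ubiquitin ligases Znrf3 and Rnf43 remove Frizzled from the surface, and R-spondins such as Rspo3 block them through Lgr5. In mouse embryonic stem cells this pathway supports self-renewal, and Tcf7l1 acts there mainly as a repressor.

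KDM6A intervals touched the start region (250 bases before to 50 after the start) of 3 of these genes in at least 2 libraries, namely Gsk3b and Rnf43 in 3 libraries each and Wnt9b in 2. Starts could be placed for the 33 of 47 genes with an entry in the RefSeq promoter table, so this was 9.09% of them, against 3.98% of all 17491 genes with such an entry. Rnf43 and Wnt9b lie on chromosome 11, where 36.2% of all genes were listed in all 4 KDM6A libraries, against 11.4% elsewhere. The shares of starts were not split by chromosome. Per library, start regions were touched in 5 and 0 of the 33 genes in control cells (10.8% and 2.78% of all genes) and in 4 and 2 in MTX cells (7.83% and 3.32%), with Wnt5b, Wnt9a and Tcf7l2 in 1 library each. The start base itself was covered at Wnt9a, while the intervals ended 11 bp from it at Wnt5b and 10 bp at Tcf7l2. No IgG interval touched the start region of any of the 33 genes, while 5.57% of all genes with an entry had 1. The 250 bases upstream of these 3 starts are shown because their start regions are those, among the 33 genes, that KDM6A intervals of more than 1 library touched. They are read 5′ to 3′ on the strand of the gene, from RefSeq on GRCm38.p6, at chr16:38088751-38089000 (plus strand) for Gsk3b, chr11:87662837-87663086 (plus) for Rnf43 and chr11:103749822-103750071 (minus) for Wnt9b. Capitals mark CpG dinucleotides.
Gsk3b: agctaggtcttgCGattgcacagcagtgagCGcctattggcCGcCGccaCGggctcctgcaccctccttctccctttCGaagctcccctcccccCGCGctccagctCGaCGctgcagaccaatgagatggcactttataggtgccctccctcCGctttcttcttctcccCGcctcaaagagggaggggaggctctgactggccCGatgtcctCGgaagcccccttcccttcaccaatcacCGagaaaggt
Rnf43: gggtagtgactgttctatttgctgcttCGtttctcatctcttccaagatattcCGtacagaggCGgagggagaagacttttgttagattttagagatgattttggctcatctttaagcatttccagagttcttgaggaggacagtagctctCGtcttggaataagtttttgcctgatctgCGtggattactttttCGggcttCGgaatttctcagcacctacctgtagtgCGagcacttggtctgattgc
Wnt9b: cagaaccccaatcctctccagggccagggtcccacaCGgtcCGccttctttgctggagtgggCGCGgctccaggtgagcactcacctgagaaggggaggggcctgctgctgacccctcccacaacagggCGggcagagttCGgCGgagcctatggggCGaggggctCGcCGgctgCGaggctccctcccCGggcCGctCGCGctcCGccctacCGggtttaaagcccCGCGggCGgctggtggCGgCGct
The 3 stretches differed in composition: the Wnt9b stretch was 72% GC with 22 CpG, the Gsk3b stretch 62% GC with 15 CpG and the Rnf43 stretch 44.4% GC with 8 CpG. Over all 32851 promoter entries the median was 52.4% GC and 6 CpG. Neither CTTTGAA nor CTTTGAT, the core letters that Tcf and Lef proteins are known to bind, occurred on either strand of the 3 stretches. Of all entries 4.46% held the first, 3.21% the second and 7.48% at least 1 of them, so their absence from 3 stretches is the usual case.

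The intervals at these starts were weak. At Gsk3b, the kinase of the destruction complex, control library 1 had 83 immunoprecipitated over 88 background reads at chr16:38088401-38091400 (fold 1.25, deposited adjusted p 0.0265). The MTX libraries had 87 over 83 reads at chr16:38087201-38089400 (fold 1.12, adjusted p 0.147) and 120 over 101 reads at chr16:38084401-38088800 (fold 1.33, adjusted p 0.00162). The fold in the deposited lists divides immunoprecipitated by background reads and multiplies by a constant of the list, so a value of 1 means no excess. The last of these ended 201 bp before the start base and the other two covered it. The 3 intervals have chr16:38088401-38088800, upstream of the start, in common, and control library 2 and IgG listed nothing there. At Rnf43, control library 1 had 117 over 142 reads (fold 1.09, adjusted p 0.179) at chr11:87658201-87663800 and MTX library 1 had 95 over 66 reads (fold 1.54, adjusted p 6.21e-05) at chr11:87661201-87663800. MTX library 2 covered another annotated start of Rnf43, inside the gene, with an interval of fold 1.04. At Wnt9b the folds were 1.23 in control library 1 (51 over 55 reads, adjusted p 0.0756) and 0.96 in MTX library 1 (103 over 115 reads, adjusted p 1). Of the 7 intervals at the stretches shown, 3 therefore had a deposited adjusted p under 0.05, and control library 2 touched no start region of the 33 genes.

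Across the pathway, an interval lay in the window of 24 and 17 of the 47 genes in control libraries 1 and 2, of 20 and 17 genes in MTX libraries 1 and 2, and of 17 genes in the IgG library. In that order, these were 51.1%, 36.2%, 42.6%, 36.2% and 36.2% of the Wnt genes, against 47.1%, 26.1%, 33.5%, 30.8% and 27.5% of all protein-coding genes. The Wnt genes were above the background in each library, IgG included. In all 4 KDM6A libraries 13 genes (27.7%) had an interval, against 13.2% of all genes, and 19 genes (40.4%) had none in any of the 5 libraries, against 36.1%. Of the remaining 15 genes 4 were listed in 3 KDM6A libraries, 3 in 2 and 8 in 1.

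**Figure D1:**
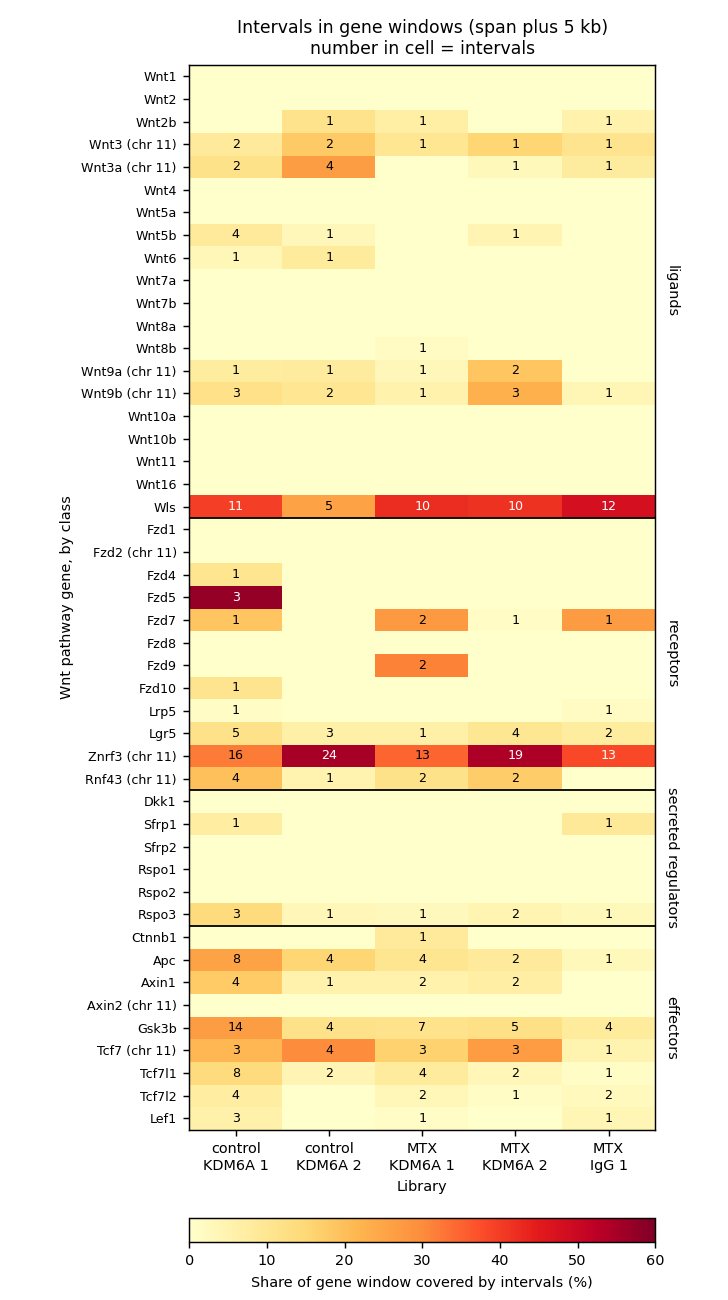
Share of each gene window (span plus 5 kb) that intervals covered, for the 47 Wnt pathway genes (rows, grouped by class) in the 5 libraries (columns). The number in a cell is the count of intervals and empty cells had none. Wls and Znrf3 are covered over much of their windows in every library, IgG included, and 19 rows are empty throughout.

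The lists behind these counts were shallow and unequal. They held 44838 and 21228 intervals for control libraries 1 and 2, 24177 and 28976 for the MTX libraries and 22843 for IgG, with a median of 79 to 130 immunoprecipitated reads and a median width of 2800 to 4000 bp. IgG and MTX library 1 are not independent, because their background counts were identical in all 52 intervals that both lists held. Chromosome 11 held 12.5% to 24.5% of the intervals of a list. Total reads per library are unknown, since the files count only reads within intervals, and the 95% intervals given for folds cover counting error only.

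Among the ligand genes, 7, 8, 6 and 6 of 20 were listed in control libraries 1 and 2 and MTX libraries 1 and 2, and 5 in IgG. Over all genes the shares were 47.1%, 26.1%, 33.5% and 30.8%, and 27.5% in IgG. Wls, Wnt3, Wnt9a and Wnt9b had an interval in all 4 KDM6A libraries (all genes 13.2%) and 11 ligand genes had none in any library (all genes 36.1%). Those 11 were Wnt1, Wnt2, Wnt4, Wnt5a, Wnt7a, Wnt7b, Wnt8a, Wnt10a, Wnt10b, Wnt11 and Wnt16. The nearest misses were Wnt7a, with an interval of control library 2 at 7.45 kb from the gene, and Wnt7b, with 1 of control library 1 at 8.98 kb. Ligand intervals lay at a gene end (within 1 kb) in 3 genes in control library 1, in none in control library 2 and in 1 gene in each MTX library. Of all genes, 20.2% and 7.72% had such an interval in the control libraries and 13.4% and 9.27% in the MTX libraries.

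Wls, the escort of Wnt proteins, was widely covered in every library, and as widely with IgG as with KDM6A. Intervals took up 39.6% and 25.5% of its window in control cells, 42.2% and 41.5% in MTX cells and 47.9% in IgG. Of the 6006 genes with a window of at least 50 kb, 3.51% or fewer in any library reached the same coverage. Its summed reads were 1242 over 1087 and 957 over 791 in control cells, 1579 over 1208 and 1542 over 1190 in MTX cells and 1990 over 1366 in IgG. The folds were thus 1.51, 1.26, 1.40 and 1.45 in the KDM6A libraries and 1.51 in IgG, and the IgG value was as high as the highest KDM6A value. Of the 36 KDM6A intervals at Wls 32 overlapped an IgG interval, and 35 lay in the gene body. All 4 KDM6A libraries had 3 stretches in common, chr3:159864001-159866200, chr3:159867001-159868000 and chr3:159906401-159908200, and IgG intervals covered 4200 of their 5000 bp.

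Wnt9a had the highest folds of the ligand genes in both control libraries and folds under 1 in both MTX libraries. Control library 1 had 74 over 47 reads (fold 2.08) and control library 2 had 123 over 71 (fold 1.81), while MTX library 1 had 154 over 173 (fold 0.96) and MTX library 2 had 332 over 376 in 2 intervals (fold 0.99). The control and MTX values did not overlap, and IgG listed nothing there. The intervals were not at the same place, however. Control library 1 covered the gene start at chr11:59304801-59307600, control library 2 the body at chr11:59315001-59318000, and both MTX libraries a flank from chr11:59337401, outside the gene. MTX library 2 also listed chr11:59310001-59315800 in the body at fold 0.91.

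Wnt3 and Wnt9b are neighbours on chromosome 11, and the interval chr11:103769801-103771800 of control library 1 (fold 1.75) fell in both windows. Folds at Wnt9b were 1.53 and 1.20 in control cells (211 over 182 and 209 over 181 reads) and 0.96 and 1.10 in MTX cells (103 over 115 and 410 over 416), with 1.11 in IgG (89 over 83). Folds at Wnt3 were 1.42 and 0.95 in control cells (141 over 131 and 307 over 335 reads) and 1.11 and 0.86 in MTX cells (160 over 154 and 229 over 297), with 0.93 in IgG (171 over 190). The groups overlapped at Wnt3 and did not at Wnt9b, and MTX library 2 and IgG overlapped at the far end of Wnt3. Wnt3a, a neighbour of Wnt9a and the ligand most used to activate the pathway in culture, was listed in control library 1 (189 over 163 reads, fold 1.53), control library 2 (540 over 441, 1.28), MTX library 2 (147 over 141, 1.17) and IgG (172 over 165, 1.08), and not in MTX library 1.

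The other listed ligand genes had few intervals. Wnt6 was the only gene of the 47 listed in both control and neither MTX library, with 54 over 43 reads (fold 1.66) and 120 over 132 reads (fold 0.95, adjusted p 1), the second without any excess. This pattern held for 2.18% of all genes, or about the 1 gene seen here, and the reverse held for 1.26% of all genes and none of the 47. Wnt5b, a ligand that acts mainly without beta-catenin, had folds of 1.5, 1.05 and 1.02 in control libraries 1 and 2 and MTX library 2. Wnt2b (control library 2 at 1.40, MTX library 1 at 1.09) and Wnt8b (MTX library 1 at 1.73) were listed through a flank alone, and both Wnt2b intervals overlapped IgG.

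**Figure D2:**
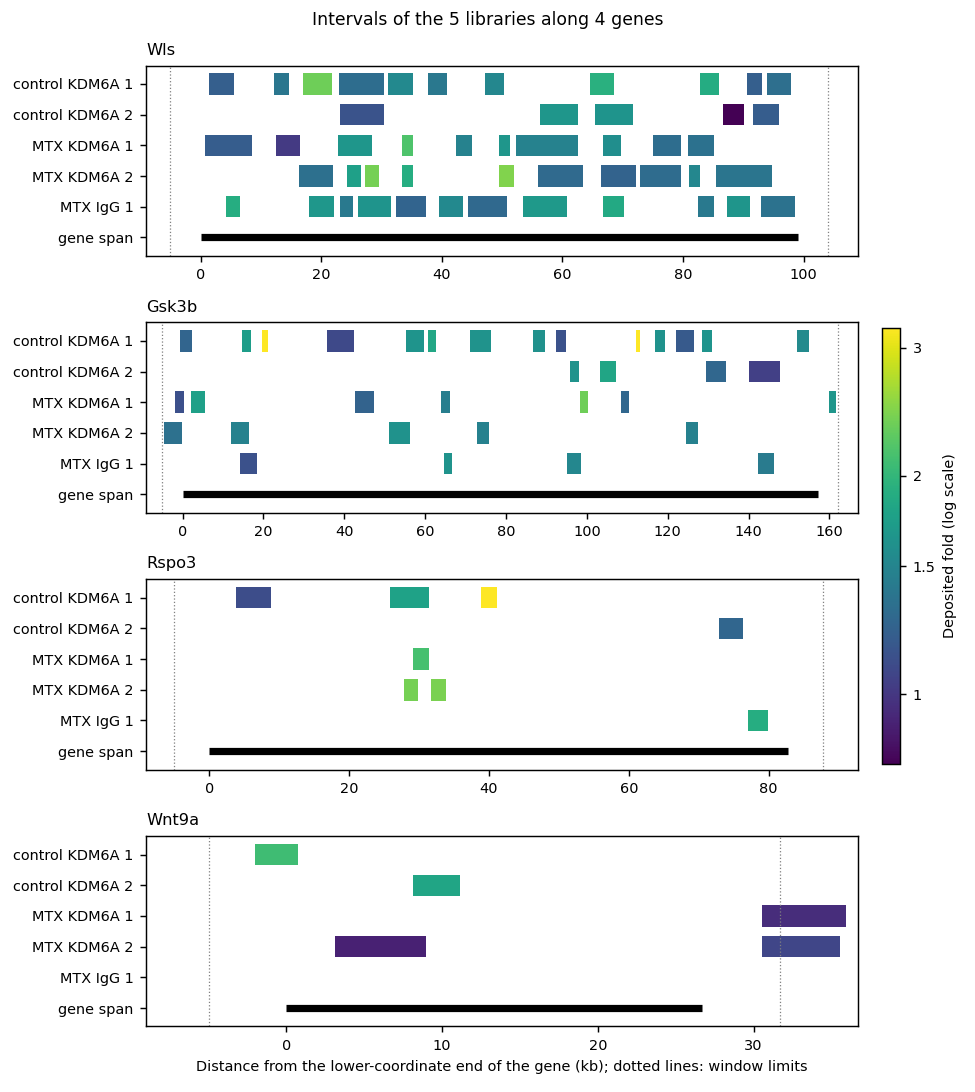
Intervals of the 5 libraries along Wls, Gsk3b, Rspo3 and Wnt9a, by distance in kb from the lower-coordinate end of the gene (black bar, gene span; dotted lines, window limits 5 kb outside). Colour gives the deposited fold on a log scale. Wls intervals recur in every library including IgG, Rspo3 intervals of control library 1 and both MTX libraries meet at 1 place near 30 kb, and Wnt9a intervals lie at different places in the control and MTX libraries.

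Receptor genes were listed in 8, 3, 5 and 4 of 12 cases in control libraries 1 and 2 and MTX libraries 1 and 2, and in 4 cases in IgG. Over all genes the shares were 47.1%, 26.1%, 33.5% and 30.8%, and 27.5% in IgG. Lgr5, Znrf3 and Rnf43, the R-spondin receptor and the ligases it controls, were listed in all 4 KDM6A libraries. No Frizzled gene and no Lrp5 was. Fzd1, Fzd2 and Fzd8 had no interval in any library. Receptor intervals at a gene end were found in 5 and 1 genes in control cells and 4 and 1 in MTX cells (all genes 20.2%, 7.72%, 13.4% and 9.27%).

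Znrf3 carried 72 KDM6A intervals, more than any other gene of the pathway, and they were weak. Its window of 178.5 kb was covered to 32.1% and 55.3% in control cells, 34.9% and 54.4% in MTX cells and 38.4% in IgG. Summed reads were 1831 over 1963 (fold 1.23) and 4010 over 3758 (1.11) in control cells, 2296 over 2262 (1.09) and 3634 over 3733 (1.09) in MTX cells and 2399 over 2599 (0.96) in IgG. All 5 values lay between 0.96 and 1.23, and 19 of the 72 KDM6A intervals had a fold under 1. IgG intervals overlapped 42 of the 72. Common to all 4 KDM6A libraries were 8 stretches of 8200 bp in all, and 6 of them were free of IgG, the widest of these at chr11:5392001-5393400 in the gene body.

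Lgr5, which also marks several adult stem cells, had 5, 3, 1 and 4 intervals in the KDM6A libraries and 2 in IgG. Its reads were 521 over 408 (fold 1.69) and 384 over 303 (1.32) in control cells, 259 over 203 (1.37) and 499 over 364 (1.54) in MTX cells and 380 over 314 (1.26) in IgG. Every KDM6A fold was above that of IgG, and the control and MTX values overlapped. Control library 1 and both MTX libraries had chr10:115463201-115465000 in common, without IgG, and 1 of the 13 KDM6A intervals overlapped IgG elsewhere. Rnf43 had folds of 1.23 and 1.19 in control cells (380 over 408 and 126 over 110 reads) and 1.42 and 1.12 in MTX cells (286 over 216 and 393 over 394), and no IgG interval lay in its window.

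Frizzled genes and Lrp5 were mostly listed in a single library. Fzd7 was found in 3 KDM6A libraries (folds 1.42, 1.33 and 1.38) and in IgG at 1.34, with the interval at its far end overlapping IgG in control library 1 and MTX library 1. Fzd5 had 3 intervals in control library 1 alone (323 over 279 reads, fold 1.53) that covered 57.2% of its short window. Control library 1 was also alone in listing Fzd4 (1.95), Fzd10 in a flank (57 over 24 reads, 3.14, adjusted p 8.78e-13) and Lrp5 (1.62). Fzd9 was listed in MTX library 1 (168 over 91 reads, 1.98). The Lrp5 body also held an IgG interval at another place with 86 over 32 reads (fold 2.79), the highest IgG value among the 47 genes.

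Of the 6 secreted regulators, 4 had no interval in any library (all genes 36.1%): the Wnt antagonists Dkk1 and Sfrp2 and the R-spondins Rspo1 and Rspo2. Sfrp1, another antagonist, was listed in control library 1 (91 over 72 reads, fold 1.67) and, at a place next to it, in IgG (114 over 71, 1.67). Rspo3, a secreted activator, was listed in all 4 KDM6A libraries, always in its body. Its reads were 322 over 266 (fold 1.60) and 104 over 86 (1.26) in control cells and 89 over 45 (2.12) and 172 over 80 (2.41) in MTX cells, so both MTX values lay above both control values. IgG had 98 over 54 reads (1.88), between the groups. Intervals of control library 1 and both MTX libraries met at the stretch chr10:29482201-29483000, which was free of IgG. These whole intervals, 5600, 2400 and 2000 bp wide, had folds of 1.78 (95% Poisson interval of the ratio 1.37 to 2.32), 2.12 (1.47 to 3.11) and 2.40 (1.59 to 3.67), and these ranges overlap. Reads within the shared stretch alone were not available. The only interval of control library 2 (1.26) lay elsewhere, at chr10:29526001-29529400. Control library 1 also listed chr10:29492001-29494200 at fold 3.31 and chr10:29457001-29462000 at fold 1.11 (112 over 134 reads). Its sum over the window (1.60) was also below both MTX values.

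Effector genes were listed in 7, 5, 8 and 6 of 9 cases in control libraries 1 and 2 and MTX libraries 1 and 2, and in 6 in IgG. Over all genes the shares were 47.1%, 26.1%, 33.5% and 30.8%, and 27.5% in IgG. Over all genes with windows over 100 kb they were 85.4%, 63.6%, 70.7% and 71.5%, and 63.9% in IgG. The effectors are mostly long genes (median window 111.9 kb), but Ctnnb1, Axin2, Tcf7 and Axin1 have windows of 37.1 to 74.6 kb. Of the 9, Apc, Axin1, Gsk3b, Tcf7 and Tcf7l1 were listed in all 4 KDM6A libraries, beside 13.2% of all genes and 50.9% of those with windows over 100 kb. For the shorter windows of Axin1 (50 to 100 kb) and Tcf7 (20 to 50 kb) the shares of all genes were 22.8% and 7.14%. Axin2, a feedback target of the pathway that blunts it, was the only effector without an interval, and the nearest lay 6.82 kb away in control library 2. Beta-catenin itself (Ctnnb1) was listed in MTX library 1 alone, at its far end, with 108 over 113 reads (fold 1.03, adjusted p 0.407). Effector intervals at a gene end were found in 3 and 1 genes in control cells and 5 and 2 in MTX cells (all genes 20.2%, 7.72%, 13.4% and 9.27%).

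The genes of the destruction complex were covered mostly in their bodies, and KDM6A intervals overlapped IgG at Gsk3b but not at Apc or Axin1. Gsk3b had 14, 4, 7 and 5 intervals in the KDM6A libraries and 4 in IgG, with 1279 over 1128 reads (fold 1.5) and 576 over 468 (1.28) in control cells, 683 over 510 (1.44) and 665 over 505 (1.48) in MTX cells and 465 over 351 (1.37) in IgG. IgG thus lay inside the KDM6A range, and 6 of the 30 KDM6A intervals overlapped it. Apc had 745 over 819 reads (1.20) and 599 over 488 (1.28) in control cells, 426 over 278 (1.64) and 329 over 283 (1.30) in MTX cells and 118 over 90 (1.36) in IgG. None of its 18 KDM6A intervals overlapped the IgG interval, although an interval of control library 2 began where that ended. Axin1, the scaffold, had folds of 1.33 and 1.18 in control cells (347 over 344 and 141 over 124 reads) and 1.48 and 1.28 in MTX cells (167 over 121 and 189 over 166), and IgG listed nothing there.

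Some single intervals in these bodies stood well above their gene's sum. Control library 1 had 47 over 17 reads at chr16:38201201-38202200 in Gsk3b (fold 3.66, 95% interval 2.06 to 6.79), the highest fold among the 47 genes, and a fold of 3.56 at chr16:38108601-38110200. MTX library 1 had 102 over 36 reads at chr18:34242801-34245400 in Apc (3.04, 2.06 to 4.58). Neither Gsk3b interval was overlapped by another library's interval, and the Apc interval lay within an interval of control library 2 at fold 1.28. Apc, Axin1 and Gsk3b each had a stretch common to 3 KDM6A libraries and free of IgG, of 1400, 600 and 400 bp.

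Among the DNA-binding effectors, Tcf7 had 274 over 267 reads (fold 1.36) and 527 over 513 (1.07) in control cells, 304 over 276 (1.18) and 536 over 563 (1.07) in MTX cells and 130 over 104 (1.30) in IgG. All 4 KDM6A libraries had chr11:52244201-52246000, just downstream of the gene, in common, and that stretch itself held no IgG interval. Both control libraries had the interval chr11:52242401-52246600 in identical form at folds of 1.25 and 1.24. Of the 13 KDM6A intervals at Tcf7, 3 overlapped IgG, namely those of both control libraries and MTX library 2 at this place. In MTX library 2 the interval there had a fold of 0.87. Tcf7l1, the repressor, had 655 over 641 reads (1.35) and 231 over 228 (1.06) in control cells and 454 over 449 (1.08) and 208 over 221 (1.05) in MTX cells, against 78 over 59 (1.37) in IgG. None of its 16 KDM6A intervals overlapped IgG, and control library 1 was the only KDM6A library above 1.08. Tcf7l2 was listed in 3 KDM6A libraries (1.37, 1.27 and 1.48) and IgG (1.43), and Lef1 in control library 1 (1.70), MTX library 1 (1.54) and IgG (1.27).

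**Figure D3:**
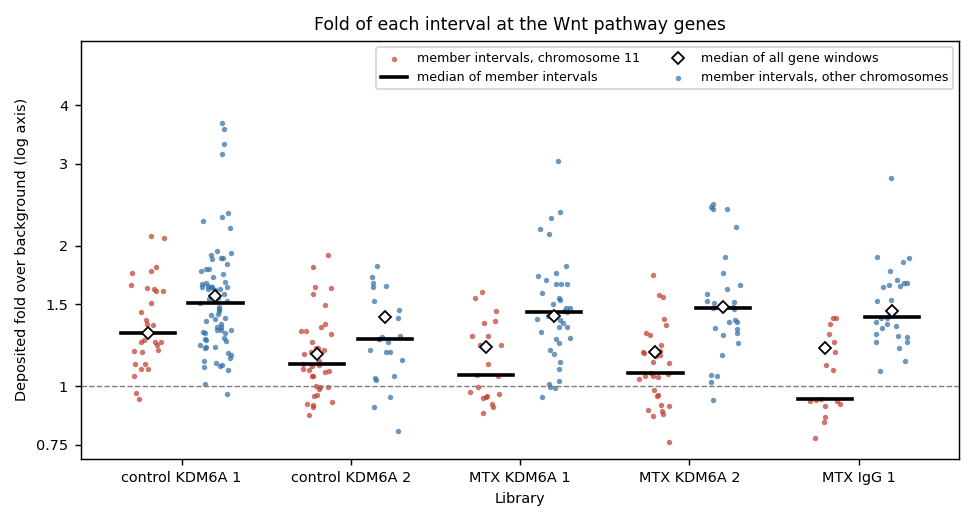
Deposited fold (log axis) of each interval at the 47 Wnt pathway genes, by library, split into chromosome 11 (red) and other chromosomes (blue). Bars are medians of these intervals and open diamonds medians over all gene windows of the same chromosomes. Values on chromosome 11 are lower in every library, IgG included, with medians of 0.94 to 1.30 against 1.26 to 1.51 elsewhere.

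Chromosome 11 holds 9 of the 47 genes (Znrf3, Tcf7, Wnt3a, Wnt9a, Rnf43, Fzd2, Wnt9b, Wnt3 and Axin2) and 6 of the 13 that all 4 KDM6A libraries listed. All genes of that chromosome were often listed. Of its 1609 genes 36.2% were listed in all 4 KDM6A libraries, beside 6 of the 9 Wnt genes (66.7%). Per library 7, 7, 6 and 7 of the 9 Wnt genes had an interval with KDM6A, beside 70.3%, 58.5%, 62.8% and 57.1% of all genes there, and 5 of 9 with IgG, beside 52.6%. On the other chromosomes 7 of 38 Wnt genes (18.4%) were listed in all 4 libraries, against 11.4% of all genes. Per library the share there was 44.7% against 45.3% and 26.3% against 23.5% in control cells, 36.8% against 31.1% and 26.3% against 28.7% in MTX cells, and 31.6% against 25.5% in IgG. Outside chromosome 11 the Wnt shares thus fell on both sides of the background, and below it in control library 1 and MTX library 2.

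Window length moved with the counts as well. The 13 genes listed in all 4 KDM6A libraries had a median window of 92.8 kb, the 15 listed in 1 to 3 libraries 37.1 kb and the 19 listed in none 22.2 kb. The median over all genes was 27.2 kb and over the 47 Wnt genes 41.0 kb. Among genes with windows over 100 kb, 6 of 11 Wnt genes (54.5%) were listed in all 4 libraries, against 50.9% of all genes. None of 13 Wnt genes with windows up to 20 kb was, against 2.17%, and 2 of 14 between 20 and 50 kb (14.3%) were, against 7.14%. Between 50 and 100 kb the Wnt genes stood higher, at 5 of 9 (55.6%) against 22.8%, and these were Wnt3, Wnt9b, Rnf43, Axin1 and Rspo3, the first 3 on chromosome 11.

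**Figure D4:**
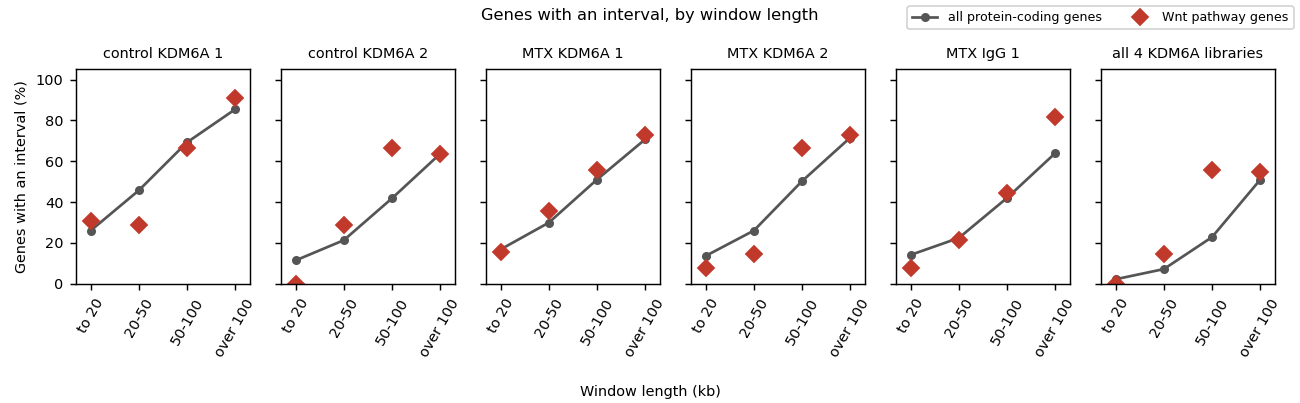
Share of genes with an interval (%) by window length in 4 bins, in each library and in all 4 KDM6A libraries together, for all protein-coding genes (line) and the 47 Wnt pathway genes (diamonds, 9 to 14 genes a bin). The share rises with length in every panel for all genes, and the Wnt genes of 50 to 100 kb lie farthest above the line in both second libraries and in the last panel.

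Intervals lay mostly inside the genes. Of gene-interval pairs, 87, 54, 42 and 53 were in a gene body in control libraries 1 and 2 and MTX libraries 1 and 2, 11, 3, 12 and 4 at a gene end and 6, 4, 6 and 4 in a flank. Genes with an interval at an end numbered 11 (23.4%), 2 (4.26%), 10 (21.3%) and 4 (8.51%), against 20.2%, 7.72%, 13.4% and 9.27% of all genes, and 5 (10.6%) against 10.4% in IgG. The shares thus fell on both sides of the background. Both first libraries had more gene ends than both second libraries among the Wnt genes as among all genes.

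IgG overlap was uneven across the pathway. The only IgG library came from MTX cells, so control intervals were also set against IgG of treated cells. Of the KDM6A intervals in Wnt windows, 22.3% and 34.4% overlapped IgG in control cells and 35% and 41.0% in MTX cells, against 20.1%, 27.2%, 26.4% and 25.4% over all gene windows. Znrf3 and Wls, singled out after their values were seen, held 108 of the 285 KDM6A intervals of the 47 genes and 74 of the 90 that overlapped IgG. Without these genes 16 of 177 intervals (9.04%) overlapped IgG, and the shares per library were 3.95%, 12.5%, 10.8% and 15.6%. Coverage of the windows followed the same pattern, with 11.9%, 8.63%, 7.56% and 9.31% of bases in the KDM6A libraries and 6.63% in IgG (all genes 6.81%, 4.32%, 4.59%, 5.27% and 4.41%), but 9.31%, 4.69%, 4.21%, 4.83% and 2.69% without Znrf3 and Wls. Without intervals that overlapped IgG, 11 genes were listed in all 4 KDM6A libraries (23.4%, beside 10.1% of all genes), and Wls and Wnt3 were the genes lost. Within the Wnt windows the control libraries had 22.4% and 30.7% of their covered bases in common (all genes 14.1% and 21.6%). The MTX libraries had 35.9% and 29.1% (20.2% and 17.2%), and control library 2 and MTX library 2 39.5% and 36.6% (25.2% and 20.6%). The KDM6A libraries shared 18.4% to 26.3% of their bases with IgG, and IgG 27.1% to 36.5% of its bases with them. Shares within a group thus lay in the range seen with IgG, and those of control library 2 with MTX library 2 just above it. Over all genes the shares with IgG ran from 15.3% to 23.2%.

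The comparison of MTX with control cells asked whether KDM6A reads over background changed after the drug. It was made with edgeR's quasi-likelihood test on reads summed per gene over the intervals of its window, with the background reads of the same intervals as an offset, for the 2887 genes listed in all 4 KDM6A libraries. No gene passed an adjusted p of 0.05 in either direction (smallest adjusted p 0.984, 0% of genes called), and 83 genes (2.87%) had an unadjusted p under 0.05. All 13 listed Wnt genes were tested and none passed. Their log2 changes ran from -0.97 to 0.70 with 6 above and 7 below 0, a median of -0.01 (all genes 0.00), and a median size of 0.13 (all genes 0.13). Listing in all 4 libraries was itself the condition for the test, so the other 34 Wnt genes have no value here.

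**Figure D5:**
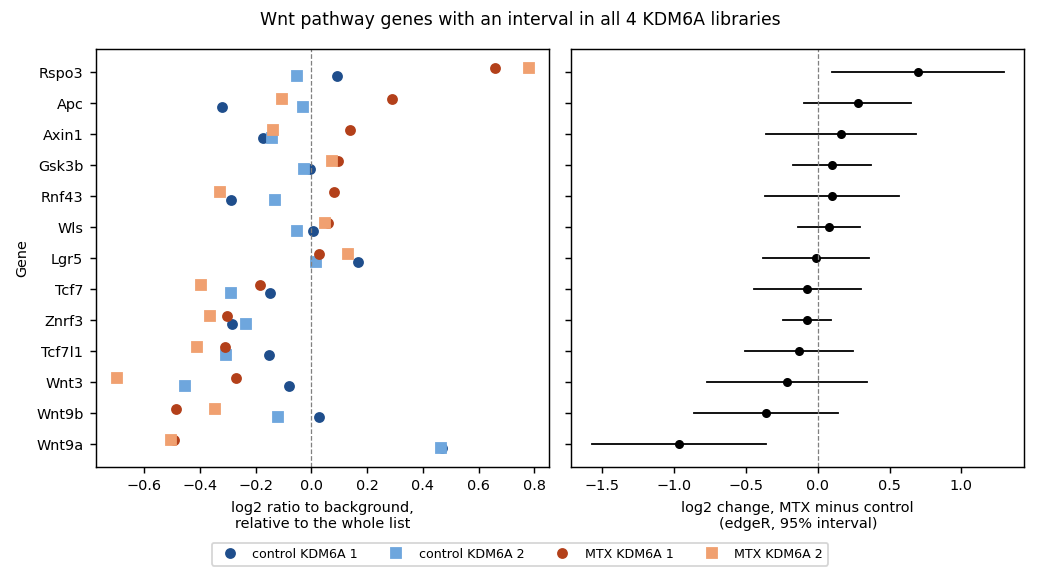
Left, log2 ratio of immunoprecipitated to background reads, relative to the ratio over the whole list, in the 4 KDM6A libraries for the 13 Wnt genes listed in all of them. Right, log2 change in MTX against control cells from edgeR with its 95% interval. Wnt9a (-0.97) and Rspo3 (0.70) are the ends of the range and the only ones whose intervals exclude 0, before adjustment, and the signs of both turn when the background offset is left out.

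Wnt9a and Rspo3 were the only Wnt genes with an unadjusted p under 0.05 in edgeR, at 0.00357 and 0.0244. The log2 change at Wnt9a was -0.97 ± 0.29 (SE, adjusted p = 0.984 by edgeR). Its mean fold was 1.94 ± 0.20 (SD, n = 2) in control cells against 0.97 ± 0.024 (SD, n = 2) after MTX. The change at Rspo3 was 0.70 ± 0.29 (SE, adjusted p = 0.984 by edgeR). Its mean fold was 1.43 ± 0.24 in control cells against 2.27 ± 0.20 after MTX (SD, n = 2). Neither passed the adjustment, and the places compared differ between libraries as described above. With reads scaled by TMM and no background offset both signs turned, to 1.22 at Wnt9a and -0.76 at Rspo3, again without passing. In 8 of the 13 genes the control and MTX log2 ratios, taken relative to the whole list, did not overlap, beside 31.5% of all genes tested. In 6 of those 8, all but Wnt9a and Rspo3, the log2 change was between -0.36 and 0.16. The count depends on that scaling, since the deposited folds of Wls, Gsk3b, Axin1 and Tcf7l1, all among the 8, did overlap. With 2 libraries a group an exact permutation test of single values cannot give a p under 0.333.

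The remaining 11 genes had 95% intervals that included 0. The narrowest belonged to the best covered genes, -0.08 (-0.25 to 0.09) at Znrf3 and 0.08 (-0.14 to 0.30) at Wls. These intervals concern reads summed over places that differ between libraries and set no bound on a change at 1 place, and at the gene ends of Znrf3 the value was 0.28. Gsk3b stood at 0.10 (-0.17 to 0.37), Apc at 0.28 (-0.09 to 0.65) and Wnt3 at -0.21 (-0.77 to 0.35).

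A further 47 genes of the pathway outside the set, among them other receptors, antagonists, Dishevelled proteins, casein kinases and polarity genes, were listed in 29, 15, 20 and 17 cases in the KDM6A libraries and 18 in IgG. The shares over all genes were 47.1%, 26.1%, 33.5% and 30.8%, and 27.5% in IgG. Of these 7 were listed in all 4 KDM6A libraries (14.9%, all genes 13.2%), namely the receptors Lgr4, Lgr6 and Lrp6, the Dkk receptor Kremen1, the kinase Csnk1d, the ubiquitin ligase part Btrc and the polarity gene Prickle2. Lrp6, the close relative of Lrp5, had folds of 1.30 and 1.09 in control cells, 1.28 and 1.34 in MTX cells and 1.25 in IgG. Lgr4 had 1 interval at fold 5.31 in control library 2 and folds of 1.06 to 1.61 in the other KDM6A libraries. None of the 47 was listed in both MTX libraries alone (all genes 1.26%), and Pygo1 was the only gene listed in both control libraries alone (all genes 2.18%).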

How the data were processed

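The 5 deposited interval lists (2 control KDM6A, 2 MTX KDM6A, 1 MTX IgG) were used. The submitters' processing notes name Bowtie2, without a version, and the mm10 build, and per the labels' protocols each library had 30 amplification cycles. What program called them is not stated in the sources used here, and each list was made per library. Each interval has 2 deposited counts, whole reads of the immunoprecipitate and of a background library. The deposited fold is their ratio times 1 constant per list, and the deposited p-value and adjusted p-value were printed as given. All intervals were kept, also those with fold under 1, and all start on a 200 bp grid. Coordinates count from 1.

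Gene windows, ends (within 1 kb) and starts came from RefSeq tables of GRCm38.p6, without exons. Per gene, reads were summed over intervals, with exact 95% Poisson intervals for single ratios. MTX and control were compared with the quasi-likelihood test of edgeR 4.0.16 (R 4.3.3), with Benjamini-Hochberg adjustment and at least 10 reads a gene. In log2 ratio per gene, same-numbered libraries did not deviate together (r = 0.0253). In where intervals lay they did go together, since both first libraries had more gene ends than both second libraries. Alternatives were TMM scaling, DESeq2 1.42.0, limma 3.58.1, a replicate block, windows of 1 and 10 kb, lists of equal length, adjusted p under 0.05 and single libraries left out. The fit was tested on simulated data with 1 dispersion for all genes. It called 16 of 67 genes changed 1.5-fold, 58 of 67 changed 2-fold and 66 of 66 changed 4-fold, so most 1.5-fold changes were missed. Of 2687 unchanged genes it called 8. Full values are given for genes listed in all 4 KDM6A libraries, in both libraries of 1 group alone, or at the start in at least 2. Members and gene lists were chosen with earlier results of these data known.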

Additional observations from a re-analysis of the deposited data

How the results depend on the processing

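Total depth is unknown, so a gene without an interval may hold KDM6A below the reach of its list. Of 39 alternative counts of listed Wnt genes, 37 stayed within 1.5 times the reported count. With every list cut to the 21228 intervals of the shortest, MTX library 2 listed 10 Wnt genes in place of 17 (beside 23.9% of all genes), and 7 in place of 13 (beside 8.01% of all genes) were listed in all 4 KDM6A libraries. With deposited adjusted p under 0.05 the latter count was 9 (beside 9.59% of all genes), without Wnt3, Wnt9a, Wnt9b and Tcf7l1. Leaving out each KDM6A library in turn, chosen after seeing the data, gave 13 to 15 (beside 14.1% to 17.6% of all genes).

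The count of genes called between MTX and control cells was 0 by edgeR with TMM scaling and no background offset, by DESeq2 and by limma. Of 2887 genes in each, 66, 134 and 123 had an unadjusted p under 0.05. In windows at gene ends edgeR tested 213 genes, called 0 and gave 6 an unadjusted p under 0.05. The filter on low counts removed none of the 2887 genes, so the fit without it only repeated the main fit. With a replicate block the count was 2, although the numbers pair nothing known (r = 0.0253 between same-numbered deviations of the log2 ratio). Leaving out 1 library at a time, with the lone library of a group assumed to vary like the other group, gave 0 to 5: 1 without control library 1 or MTX library 1, 5 without control library 2 and 0 without MTX library 2. None of the 13 Wnt genes passed in any of these fits.

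TMM scaling and DESeq2, which use immunoprecipitated reads alone and so follow how much sequence was called, reversed 6 of the 13 Wnt genes. The log2 values were -0.83 and -0.85 at Apc, -0.47 and -0.49 at Axin1, -0.47 and -0.48 at Gsk3b, -0.76 and -0.78 at Rspo3, 1.22 and 1.20 at Wnt9a, and 0.18 and 0.16 at Wnt9b. In gene-end windows Znrf3 was 0.28, a reversal whose cause was not tested. Leaving out 1 library, the value ran from -0.086 to 0.067 at Lgr5, -0.11 to 0.29 at Rnf43 and -0.175 to 0.034 at Tcf7, each crossing 0.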
